A study of Homo sapiens with 2 samples.

Results

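The annexins examined here are the 10 symbols ANXA1, ANXA2, ANXA3, ANXA4, ANXA5, ANXA7, ANXA8, ANXA8L2, ANXA9 and ANXA10. They were taken by exact symbol from 30843 symbols in the transcript tables of MTAC-P and PC9. PC9 is a human lung adenocarcinoma line with an activating EGFR deletion. MTAC-P is a line derived from it that, per the labels, resists EGFR tyrosine kinase inhibitors. Both were cultured in DMEM with serum, with no inhibitor named in the protocols. The sources used here do not say how MTAC-P was selected or whether it is 1 clone. With a single library per line, the values carry no error and no test was made. The pair of lines asks which transcripts set the resistant cells apart from the cells they came from.

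Annexins are cytosolic proteins that bind acidic phospholipids when calcium rises. They share a conserved core that docks on the membrane and differ in the N-terminal tail, which several use to bind S100 proteins or other partners. In epithelial cells they take part in vesicle traffic, the anchoring of actin to membranes, the repair of plasma membrane wounds and, for ANXA2, the capture of plasminogen at the surface. ANXA1 is also a long-known substrate of the EGFR kinase.

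Levels are FPKM, which scales fragments by transcript length and library size, and a gene's level is the sum of its listed transcripts. Lines were compared by the log2 ratio, log2((MTAC-P + 1)/(PC9 + 1)), in which the added 1 shrinks the differences of low genes. All 10 annexins had a mean of at least 1 FPKM and were compared, among 11435 symbols. The listed values summed to 685082 FPKM in MTAC-P and 693444 FPKM in PC9; read numbers were not given. Both libraries carried the epithelial markers, such as EPCAM at 156 FPKM in MTAC-P and 161 FPKM in PC9, with none of the 9 markers at 2-fold. Of the 9, only 1 had a log2 ratio above 0, and their median was -0.07. CLDN4 had the lowest ratio (-0.53), at 68.3 FPKM in MTAC-P and 99.0 FPKM in PC9. Of 9 leukocyte markers only CD68 reached a mean of 1, at 28.8 FPKM in MTAC-P and 22.2 FPKM in PC9. PTPRC stood at 0.0460 FPKM in MTAC-P and 0.0910 FPKM in PC9, and MS4A1, ITGAM and NKG7 were listed at 0 in MTAC-P. Of 8 fibroblast markers only COL1A1 reached a mean of 1, at 1.33 FPKM in MTAC-P and 1.20 FPKM in PC9. Of the 5 endothelial markers listed, CDH5 stood at 4.13 FPKM in MTAC-P and 3.34 FPKM in PC9, ESAM at 2.26 FPKM in MTAC-P and 2.41 FPKM in PC9, and VWF, KDR and TEK were not compared. EGFR itself stood at 239 FPKM in MTAC-P and 196 FPKM in PC9 (log2 ratio 0.28).

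The 10 annexins examined did not move as a block. In MTAC-P, ANXA8 and its close copy ANXA8L2 were higher by 2-fold or more, ANXA5 was at least 2-fold lower, and 7 annexins lay within 2-fold. Against the 2 that were higher, 3.48% of all compared symbols were at least 2-fold higher. Of the 2, ANXA8L2 passed the minimum mean only through MTAC-P, so it could be counted only as higher. Against the 1 that was lower, 4.29% were at least 2-fold lower. The median log2 ratio of the annexins was -0.19, and that of all compared symbols was -0.02. Of the annexins, 6 lay below 0 and 4 above it, where 52.4% of all compared symbols lay below 0.

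**Figure D1:**
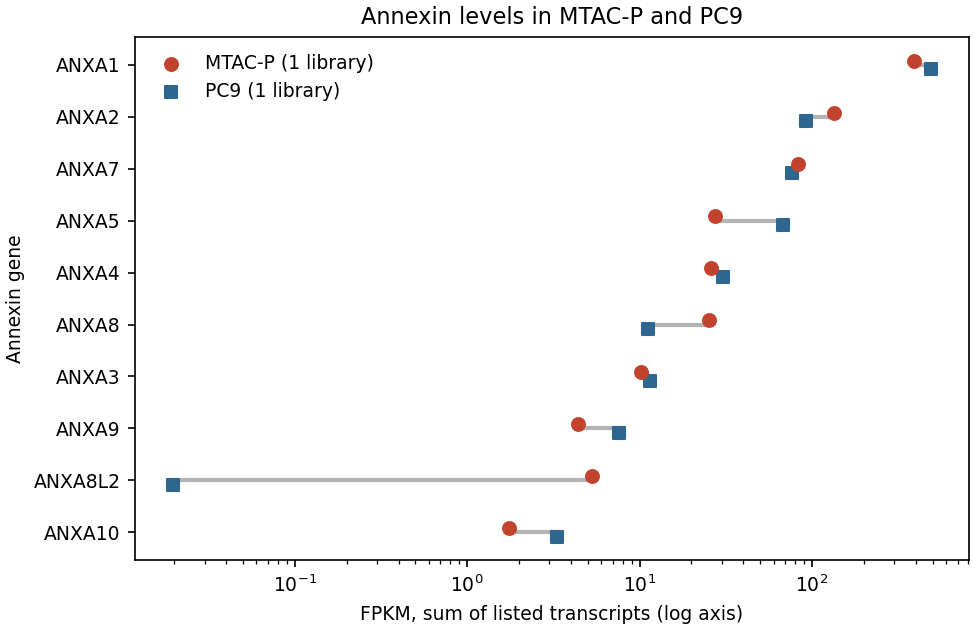
Level of each annexin in MTAC-P (circles) and PC9 (squares), in FPKM on a log axis, 1 library per line. ANXA1 is at the top in both lines at 389.9 and 489 FPKM, and the long gap belongs to ANXA8L2, at 5.30 FPKM in MTAC-P and 0.0197 FPKM in PC9.

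The copies of ANXA8 carry the results on the higher side, so their sequences come first. In GENCODE release 29 for GRCh38, ANXA8 (ENSG00000265190) lies on chromosome 10 from 47460162 to 47484158 on the minus strand. ANXA8L1 (ENSG00000264230) lies on the same chromosome from 46375627 to 46391784 on the plus strand. RefSeq (GRCh38.p14) gives ANXA8L2 as an older name of ANXA8L1, whereas the authors' tables list ANXA8, ANXA8L1 and ANXA8L2 as separate symbols. The full coding sequences of ANXA8 and ANXA8L1 each have 984 bases, and they differ at 5 of them, an identity of 99.5%. Counted from 1 at the first base of the start codon, with the base of ANXA8 first, the differences are T16G, C276T, A528G, G530C and T939C. The opening 60 coding bases, and bases 498 to 560, are shown with the differing bases in capitals.

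ANXA8 from base 1: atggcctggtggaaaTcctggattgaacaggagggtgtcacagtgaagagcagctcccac
ANXA8L1 from base 1: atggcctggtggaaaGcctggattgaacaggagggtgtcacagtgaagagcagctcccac
ANXA8 from base 498: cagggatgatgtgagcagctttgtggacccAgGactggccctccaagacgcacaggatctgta
ANXA8L1 from base 498: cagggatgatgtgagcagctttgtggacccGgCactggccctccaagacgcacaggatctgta

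Of the 935 stretches of 50 bases in the ANXA8 coding sequence, 771 (82.5%) occur without a mismatch in that of ANXA8L1. A read that covers none of these bases cannot be assigned to 1 copy from the coding sequence, so the split of the values among the copies is uncertain. No other pair among the annexins shared a stretch of 50 coding bases.

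ANXA8, an annexin of squamous and basal epithelia that is linked to endosomes and actin, stood at 25.1 FPKM in MTAC-P and 11.3 FPKM in PC9, a log2 ratio of 1.09. ANXA8L2 stood at 5.30 FPKM in MTAC-P and 0.0197 FPKM in PC9, a log2 ratio of 2.63. ANXA8L2 passed the minimum mean only through MTAC-P, so a member of this kind could enter the comparison only as different. ANXA8L1 stood at 0.0383 FPKM in MTAC-P and 0.0269 FPKM in PC9 and was not compared.

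Summed over the copies, the level was 30.5 FPKM in MTAC-P and 11.3 FPKM in PC9. This is 2.70 times as high in MTAC-P, with a log2 ratio of 1.36. ANXA8L2 made up 17.4% of the sum in MTAC-P and 0.174% in PC9. With the copies joined, 1 annexin in place of 2 was at least 2-fold higher. With a pseudocount of 5, ANXA8 alone had a log2 ratio of 0.89, below 2-fold.

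**Figure D2:**
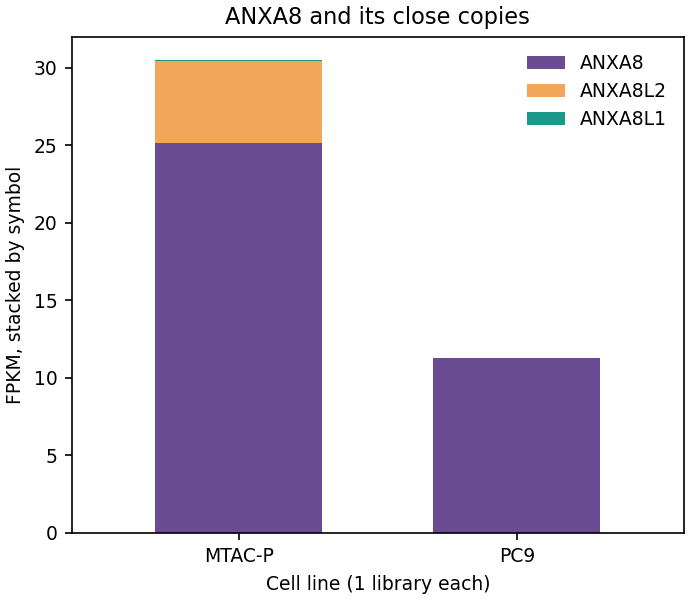
FPKM of ANXA8, ANXA8L2 and ANXA8L1, stacked, in MTAC-P and PC9, 1 library per line. The stacks reach 30.5 FPKM in MTAC-P and 11.3 FPKM in PC9, and the ANXA8L2 segment is visible in MTAC-P alone.

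By transcript, the difference within ANXA8 lay mainly in its leading form, and both ANXA8L2 transcripts were higher as well. ENST00000344416 stood at 23.8 FPKM in MTAC-P and 10.3 FPKM in PC9, a log2 ratio of 1.14. The other listed form, ENST00000357718, stood at 1.34 FPKM in MTAC-P and 1.0 FPKM in PC9 (log2 ratio 0.23). Of the ANXA8L2 transcripts, ENST00000374277 stood at 3.40 FPKM in MTAC-P and 0.0182 FPKM in PC9, and ENST00000340243 at 1.90 FPKM in MTAC-P and 0.00150 FPKM in PC9. None of these 4 IDs is in GENCODE 29, so their lengths and exons were not examined. The other 15 annexin transcripts are all in that release.

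ANXA5, which binds phosphatidylserine exposed on the outer membrane face and serves as the usual probe for apoptotic cells, was the 1 annexin at least 2-fold lower. It stood at 27.4 FPKM in MTAC-P and 67.9 FPKM in PC9, a log2 ratio of -1.28. Among the 500 compared genes nearest to it in mean level, 0.6% had a lower log2 ratio, and 2.2% were at least 2-fold lower. The gene (ENSG00000164111) lies on chromosome 4 from 121667955 to 121697113 on the minus strand. Its value rests on 1 listed transcript, ANXA5-201, out of 3 coding transcripts in GENCODE 29.

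The promoters of the annexins at 2-fold are shown as RefSeq gives them for GRCh38.p14, from 250 bases before the start site to 50 after it. Neither ANXA8 nor ANXA8L2 had an entry of its own, and the window of ANXA8L1, which carries ANXA8L2 as a synonym, is given. Capitals mark the GC box GGGCGG, searched on both strands.

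ANXA5, minus strand, chr4:121696931-121697230: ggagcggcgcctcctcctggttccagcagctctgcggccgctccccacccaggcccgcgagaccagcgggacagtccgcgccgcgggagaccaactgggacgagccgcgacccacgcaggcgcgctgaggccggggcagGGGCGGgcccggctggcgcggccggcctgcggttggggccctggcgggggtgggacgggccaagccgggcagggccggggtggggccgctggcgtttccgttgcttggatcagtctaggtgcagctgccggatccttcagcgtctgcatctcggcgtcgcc
ANXA8L1, plus strand, chr10:46375526-46375825: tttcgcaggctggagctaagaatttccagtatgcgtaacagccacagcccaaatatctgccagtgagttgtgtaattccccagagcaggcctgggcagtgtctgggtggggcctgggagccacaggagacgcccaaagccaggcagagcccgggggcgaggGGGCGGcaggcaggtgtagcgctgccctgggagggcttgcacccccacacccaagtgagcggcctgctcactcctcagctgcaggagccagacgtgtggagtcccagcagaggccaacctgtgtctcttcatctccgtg

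Each window holds 1 GC box, which 45.0% of the 35116 promoters in the table hold. Neither window holds the letters of a TATA box (TATAAA, in 11.5% of promoters), a CCAAT box (CCAAT, 34.6%) or an AP-1 site (TGANTCA, 7.71%), on either strand. Among the other annexins, the windows of ANXA1, ANXA2 and ANXA10 hold TATAAA, that of ANXA2 holds TGANTCA, and those of ANXA1 and ANXA7 hold CCAAT. G and C make up 76.3% of the ANXA5 window and 37.7% of the ANXA1 window. These matches are letters in a window and were not tested as sites.

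ANXA1, which restrains phospholipase A2 and inflammation, was the most abundant of the 10 annexins in both lines. It stood at 389.9 FPKM in MTAC-P and 489 FPKM in PC9, a log2 ratio of -0.33. That placed it above 98.2% of compared symbols in MTAC-P and 98.5% in PC9. It made up 55.2% of the summed level of the 10 in MTAC-P and 61.9% in PC9. It thus sets much of that sum, which was 706 FPKM in MTAC-P and 790.3 FPKM in PC9. Without ANXA1, the other members summed to 316 FPKM in MTAC-P and 301 FPKM in PC9.

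ANXA2, which with S100A10 forms a complex that binds plasminogen and its activator, stood at 133 FPKM in MTAC-P and 92.9 FPKM in PC9. Its log2 ratio of 0.52 is within 2-fold, and lies above 93% of the 500 genes nearest in mean level. Over the listed transcripts, the ratio of the ANXA1 level to the ANXA2 level was 2.92 in MTAC-P and 5.26 in PC9. The ANXA2 level rests on 3 of 27 coding transcripts in GENCODE 29, and that of ANXA1 on 3 of 4. The ANXA2 level, and with it this ratio, can therefore be incomplete. Of the 1025 stretches of 50 bases in the longest listed ANXA2 coding sequence, 575 (56.1%) also occur in the pseudogene ANXA2P2, so reads from both loci can be confused.

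ANXA7, which aggregates and fuses secretory vesicles, stood at 82.9 FPKM in MTAC-P and 76.6 FPKM in PC9 (log2 ratio 0.11). ANXA4, an annexin of epithelial membranes and secretory granules, stood at 25.9 FPKM in MTAC-P and 30.3 FPKM in PC9 (-0.22). ANXA3 stood at 10.2 FPKM in MTAC-P and 11.5 FPKM in PC9 (-0.16), from 1 listed transcript of the 7 coding ones in GENCODE 29. These log2 ratios lay within the 10th to 90th percentile of the 500 genes nearest each in level.

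The lowest levels among the 10 annexins belonged to ANXA9 and ANXA10, apart from ANXA8L2 in PC9. ANXA9, whose calcium sites have lost residues typical of the family, stood at 4.40 FPKM in MTAC-P and 7.55 FPKM in PC9 (log2 ratio -0.66). ANXA10, best known from gastric epithelium, stood at 1.76 FPKM in MTAC-P and 3.32 FPKM in PC9 (-0.65). Both were lower in MTAC-P by more than 1.5-fold on the log2 ratio scale, as was ANXA5, which gives 3 annexins at that limit, where 11.2% of all compared symbols were lower. The annexins at least 1.5-fold higher were ANXA8 and ANXA8L2, where 8.96% of all compared symbols were higher. Of these, ANXA8L2 passed the minimum mean through MTAC-P alone. Both ANXA9 and ANXA10 lay within the 10th to 90th percentile of genes of like level.

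**Figure D3:**
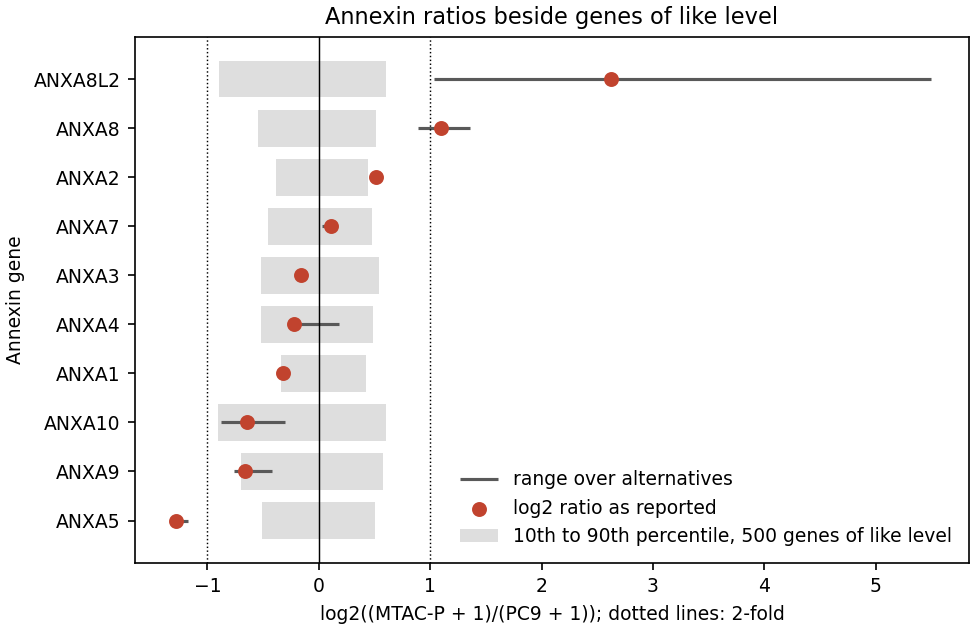
Log2 ratio of each annexin (points), the range over the processing alternatives (lines) and the 10th to 90th percentile of the 500 compared genes nearest in mean level (grey bars). ANXA8L2, ANXA8 and ANXA2 lie above their grey bars and ANXA5 lies below its bar at -1.28, while the other 6 annexins lie within theirs.

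The order of the levels was the same in both lines for ANXA1, ANXA2, ANXA7, ANXA5 and ANXA4, the top 5. In MTAC-P the gap between ANXA5 (27.4 FPKM) and ANXA4 (25.9 FPKM) is small, as is that to ANXA8 (25.1 FPKM), and with 1 library their order has no error to be read against. In PC9, ANXA5 (67.9 FPKM) lay close below ANXA7 (76.6 FPKM). ANXA8 was the 6th in MTAC-P and the 7th in PC9.

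Of the 19 annexin transcripts listed, 17 had a mean of at least 1 FPKM. Of these, 2 were higher in MTAC-P by 2-fold or more, the leading ANXA8 form and ENST00000374277 of ANXA8L2, where 7.76% of all such transcripts were higher. ENST00000374277 passed the minimum mean only through MTAC-P, so it could be counted only as higher. The 2 transcripts belong to close copies, among which the split of the values is uncertain. The ANXA5 transcript was the 1 at least 2-fold lower, where 8.88% were lower.

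Within ANXA4 the 2 listed transcripts went opposite ways. The longer, ANXA4-201 (ENST00000394295), stood at 10.1 FPKM in MTAC-P and 16.5 FPKM in PC9, a log2 ratio of -0.65. ANXA4-202 (ENST00000409920) stood at 15.8 FPKM in MTAC-P and 13.8 FPKM in PC9, a log2 ratio of 0.18. ANXA4-202 therefore made up 60.9% of the gene's level in MTAC-P and 45.6% in PC9, a difference of 15.2 percentage points. Over 7369 symbols with 2 or more transcripts, the median difference in the share of the leading transcript was 7.32 points and the 90th percentile was 32.8 points. The difference of ANXA4 exceeded 71.9% of them.

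The coding sequences of both ANXA4 forms differ by 1 run of 66 bases that ANXA4-202 lacks. The run is shown because it is the whole coding difference between them.

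ANXA4-201, plus strand, chr2:69806433-69806498: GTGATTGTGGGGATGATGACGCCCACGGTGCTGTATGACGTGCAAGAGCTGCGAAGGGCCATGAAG

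ANXA7 has a known alternative exon, kept in the form typical of muscle and brain. ANXA7-202 (ENST00000372921), without it, stood at 69.99 FPKM in MTAC-P and 68.5 FPKM in PC9 (log2 ratio 0.03). ANXA7-201 (ENST00000372919), with it, stood at 1.26 FPKM in MTAC-P and 0.229 FPKM in PC9 (0.88), or 1.53% of the gene's level in MTAC-P and 0.299% in PC9. Its mean was under 1 FPKM. The 66 coding bases that separate the forms are given here.

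ANXA7-201, minus strand, chr10:73396044-73396109: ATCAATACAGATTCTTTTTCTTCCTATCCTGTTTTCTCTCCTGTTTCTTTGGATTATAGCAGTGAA

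For ANXA2 the form ANXA2-203 (ENST00000421017) made up 93.2% of the summed level of the 3 listed transcripts in MTAC-P and 93.3% in PC9. ANXA2-201 (ENST00000332680), which begins its protein farther upstream, stood at 4.06 FPKM in MTAC-P and 2.29 FPKM in PC9 (log2 ratio 0.62). Those extra 54 coding bases join 2 exons between 60386076 and 60397913 of chromosome 15, minus strand, and stand before the tail that binds S100A10.

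ANXA2-201 from base 1: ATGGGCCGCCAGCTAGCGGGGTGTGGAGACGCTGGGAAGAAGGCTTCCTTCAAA

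ANXA1 had 2 main transcripts with like ratios. ANXA1-201 (ENST00000257497) stood at 297 FPKM in MTAC-P and 365 FPKM in PC9 (log2 ratio -0.30). ANXA1-203 (ENST00000415424), a form of 526 bases whose coding end is incomplete in GENCODE 29, stood at 92.1 FPKM in MTAC-P and 122 FPKM in PC9 (-0.40). ANXA7-203, also incomplete at its coding end, stood at 11.7 FPKM in MTAC-P and 7.88 FPKM in PC9 (0.51).

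**Figure D4:**
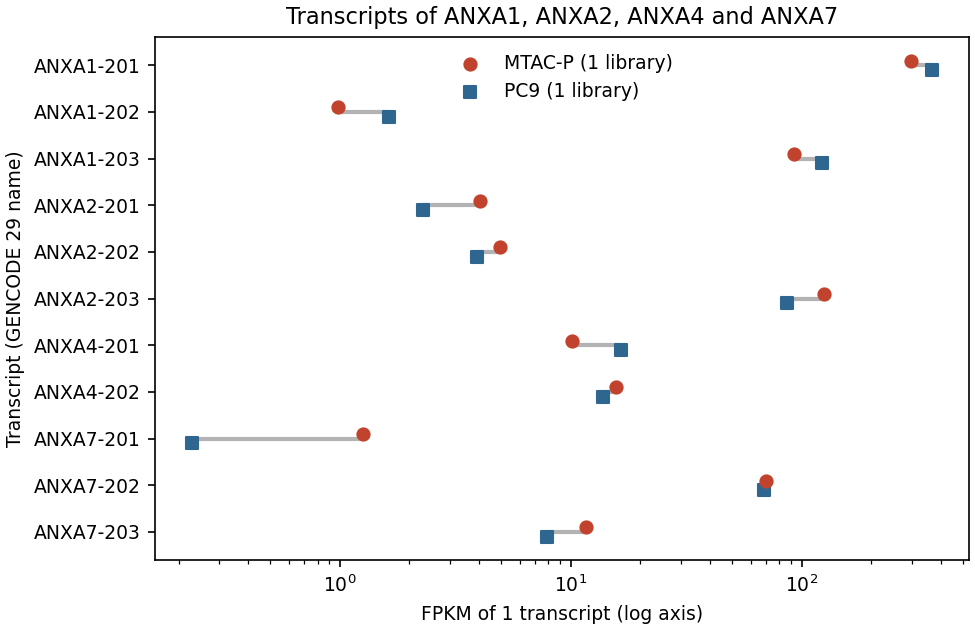
FPKM of the listed transcripts of ANXA1, ANXA2, ANXA4 and ANXA7 in MTAC-P (circles) and PC9 (squares) on a log axis, 1 library per line. The 2 ANXA4 transcripts go opposite ways, the 3 of ANXA1 lie lower in MTAC-P, and the 3 of ANXA2 lie higher.

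Genes that work with annexins were examined as 8 lists, whose counts stand against 3.48% of all compared symbols at 2-fold higher and 4.29% at 2-fold lower. Among S100 proteins, many of which bind annexin tails, 10 of 12 were compared, with 2 at least 2-fold higher and 1 lower, and a median log2 ratio of 0.54. S100A10, the partner of ANXA2, named here for that role, stood at 1363 FPKM in MTAC-P and 1165 FPKM in PC9 (0.23). S100A11, the partner of ANXA1, stood at 1816 FPKM in MTAC-P and 1003 FPKM in PC9 (0.85). S100A9 (1.43) and S100A8 (1.01), which pair as calprotectin, were the 2 at least 2-fold higher. S100A8 sat at the limit: the count was 1 with a pseudocount of 5 and with scaling to the same sum without mitochondrial genes. The list median was 0.33 with no filter on low values and 0.36 with the highest listed transcript of each gene. S100A4, which also binds ANXA2, was lower, at 16.8 FPKM in MTAC-P and 222 FPKM in PC9 (-3.65).

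Of genes of plasminogen activation at the cell surface, none of 7 compared reached 2-fold, where the shares over all symbols were 3.48% and 4.29%, and the median was 0.41. With the highest listed transcript alone, 2 of the 7 were at least 2-fold higher. The urokinase receptor PLAUR stood at 31.3 FPKM in MTAC-P and 18.8 FPKM in PC9 (0.70). ENO1, an enolase that also serves as a plasminogen receptor, was the most abundant (0.41). Plasminogen itself, PLG, named for its role, was listed at 0 in both lines.

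Of 13 compared genes of membrane repair and caveolae, none reached 2-fold (median 0.22), and 1 was at least 2-fold higher with the highest listed transcript alone. CAV2, a caveolin, stood at 116 FPKM in MTAC-P and 58.8 FPKM in PC9 (0.97), CAV1 had a ratio of 0.84, and the calpains CAPN1 and CAPN2 had ratios of 0.67 and 0.48. None of 10 compared genes in the list for ESCRT, which trims wounded membrane, reached 2-fold (median -0.02). In that list, PDCD6, a calcium sensor that binds ANXA7, had a ratio of -0.52. The count and median include the signalling adaptor GRB2 (0.02). The most abundant were CHMP2A (-0.22) and CHMP3 (-0.19), subunits of the ESCRT-III filament. Counts of 0 in lists of this size are near the shares over all symbols.

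The copines, synaptotagmins and synaptotagmin-like genes, other calcium-dependent binders of phospholipid, had a median of -0.33 over 11 compared. SYTL2 was the 1 at least 2-fold lower, at 1.15 FPKM in MTAC-P and 4.57 FPKM in PC9 (-1.38), and SYTL4 had a ratio of -0.92, where 4.29% of all symbols were lower. That count was 0 with a pseudocount of 5 or a mean of at least 5 FPKM, 2 with the highest listed transcript and 3 with a pseudocount of 0.1. The median did not hold either: it was 0.04 with a mean of at least 5 FPKM, -0.05 with the highest listed transcript and -0.01 with no filter. Among 7 scramblases and flippases, which set on which face phosphatidylserine lies, PLSCR3 was at least 2-fold lower, at 2.65 FPKM in MTAC-P and 7.82 FPKM in PC9 (-1.27). With a pseudocount of 5, PLSCR3 no longer reached 2-fold. The scramblase ANO6 had a ratio of -0.38. The median of that list was 0.07, but -0.16 with a mean of at least 5 FPKM and -0.42 with the highest listed transcript.

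Among 10 linkers of membrane and actin (median 0.13), MSN, which encodes moesin, was at least 2-fold higher, at 271 FPKM in MTAC-P and 71.1 FPKM in PC9 (1.92), where 3.48% of all symbols were higher. Its relative RDX, which encodes radixin (-0.46), and SLC9A3R1, a scaffold that binds ezrin (-0.83), were within 2-fold. The formyl peptide receptors that respond to ANXA1 peptides were near 0. FPR1 was listed at 0 in MTAC-P and stood at 0.0368 FPKM in PC9, FPR2 was listed at 0 in both, and FPR3 stood at 0.0171 FPKM in MTAC-P and 0.0164 FPKM in PC9. In their list, PLA2G6, a calcium-independent phospholipase, was the 1 gene compared (-0.99), just short of 2-fold. It passed 2-fold with a pseudocount of 0.1 (-1.22) and with scaling to the same sum without mitochondrial genes (-1.01). The ratio of PLA2G6 was only -0.55 with a pseudocount of 5 and -0.31 with the highest listed transcript alone.

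**Figure D5:**
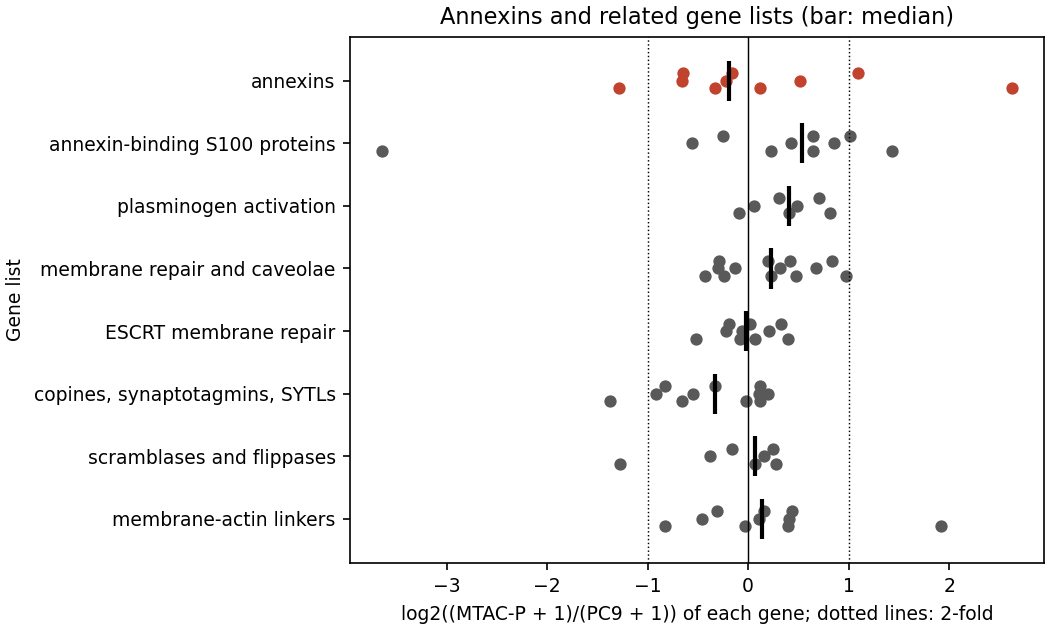
Log2 ratio of each compared gene (points) in the annexins and in the 7 related lists with more than 1 compared gene, with the list median as a bar and 2-fold as dotted lines, 1 library per line. The annexin median is -0.19, the S100 median is 0.54 with S100A4 at -3.65, and MSN stands at 1.92 among the linkers of membrane and actin.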

How the data were processed

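RNA-seq of 2 cell lines was used, with 1 library each. Per the labels' protocols, Trizol was used to extract total RNA and the libraries were of a standard Illumina kind. Trim Galore, TopHat, Cufflinks and the build hg38 are named in the submitters' processing notes, without the annotation release. The values the authors deposited, 1 for each transcript, were taken as FPKM because Cufflinks is named; the tables name no unit and give no counts or intervals, so depth is unknown. Triplicates are mentioned in the series text, yet only 1 column of values per line was deposited. Each table holds 65535 transcripts in ID order, the highest number being 437205. With a header this is the row limit of older spreadsheets, 65536. Later IDs are absent from the deposited values, so a gene's level covers its listed transcripts alone and can be incomplete. Levels, ranks and shares of different genes are not equally complete, whereas both lines list the same transcripts.

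Values were summed per symbol. Symbols with a mean of at least 1 FPKM were compared by log2((MTAC-P + 1)/(PC9 + 1)), with 2-fold as the limit and no test. Coordinates and transcript sequences came from GENCODE 29 (GRCh38), to which hg38 refers, and promoters from RefSeq, with 8 of the 10 symbols matched. Work was done in Python 3.11.15 with pandas 2.3.3 and numpy 2.4.6. The count of symbols at 2-fold was checked by putting known fold changes, without noise, into PC9 values. That check covers the arithmetic of the count and no other step. Apart from ANXA8L1, levels of annexin symbols outside the 10 were not examined. Named genes were the 10 annexins and their transcripts. Of each list, up to 4 members with the largest ratios were named and, where none was at 2-fold, the 2 most abundant. Not every gene this rule names is reported here. Members, lists and thresholds were chosen with earlier results of these data known. The alternatives were other pseudocounts, scalings, filters, transcript choices and a lower fold; joining the ANXA8 copies was added after seeing the data.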

Additional observations from a re-analysis of the deposited data

How the results depend on the processing

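No paired analysis was possible because MTAC-P and PC9 have a single library each, and no replicate could be omitted. Under the alternatives, 104 of 107 values of single annexins kept their side of the limit and none at 2-fold changed sign. The exceptions were ANXA8 with a pseudocount of 5 (0.89) and, with the limit at 1.5-fold, ANXA9 and ANXA10, which then passed it. Many of the 107 values could not change. The filters leave each ratio as it was, and every listed annexin transcript is protein-coding. Joining the copies alters no annexin but ANXA8 and ANXA8L2, and an annexin with 1 listed transcript has no other transcript choice. The count of 104 therefore includes outcomes fixed in advance. The count of annexins at least 2-fold higher was 1 in place of 2 with a pseudocount of 5, with a mean of at least 5 FPKM (8 annexins compared) and with the ANXA8 copies joined. The count of lower annexins was 3 at 1.5-fold. The annexin median was -0.066 when each symbol was represented by its highest listed transcript, since ANXA4 then had a ratio of 0.18. ANXA8L2 ranged from 1.04 to 5.50, between pseudocounts of 5 and 0.1. ANXA5 ranged from -1.31 to -1.17. Of 255 values of the related lists, 222 stayed within 0.1 of their median or 1.5 times their count. These too include settings that leave a list as it was, such as joining the ANXA8 copies. Scaling to the same sum shifted the median of all symbols by 0.02, and by -0.02 without mitochondrial genes. Depth is unknown, so low values such as ANXA10 have no precision.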

Other observations

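The 5 compared coding genes on each side of an annexin, chosen as a check after its values were seen, were examined for the annexins with GENCODE 29 coordinates, which leaves out ANXA8L2. ANXA5 had a log2 ratio of -1.28, while its 10 neighbours had a median of -0.02, a lowest of -0.94 and a highest of 0.20. ANXA8 had a ratio of 1.09, while its 10 neighbours had a median of 0.13 and a highest of 0.57, with 2 at least 2-fold lower. ANXA9, on chromosome 1, had a ratio of -0.66, while its 10 neighbours had a median of 0.51 and ranged from -0.40 to 1.15. ANXA1 had a ratio of -0.33, while its 10 neighbours had a median of 0.00 and ranged from -1.43 to 1.89. The lowest of them was the nearest on its lower-coordinate side, the aldehyde dehydrogenase gene ALDH1A1 (-1.43). The nearest on the other side, C9orf40, had a ratio of 0.02. Neighbours were counted among compared genes only, so the distances differ between loci.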
